A study of Mus musculus with 21 samples.

Results

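A set of 9 genes was followed, chosen by the size of their KI against WT change in the liver of newborn Jak1 knock-in (KI) mice: Car4, Fgf23, Magel2, Rgs4, Tnfrsf9, Plac1 and Ctsj, which were near 0 in wild-type (WT) liver and well counted in KI liver, and Galnt16 and Aoc3, which had the opposite pattern. They were 9 of the 24391 gene symbols in the count files. The values that chose them were the KI against WT differences in liver in an earlier look at the same counts, so the liver values below are a description with no test. The tests concern the brain and skin of the same mice, which did not choose the genes.

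RNA of brain, liver and skin was sequenced from 2 KI and 5 WT mice of strain C57BL/6 (C57BL/6J in the study's methods) at P0, the day of birth, with 1 library per mouse and tissue and 21 libraries in all. The KI mice were heterozygous for a Jak1 allele (Jak1 KI +/-) that carries the amino acid change H595D together with the synonymous changes I596I and Y597Y. The WT mice carried none of these changes, and mice with the synonymous changes alone were not analysed here. The KI line was kept through a mosaic male made with CRISPR-Cas9, since heterozygous mice died young. A brain, a liver and a skin library that share genotype and number in their titles were treated as coming from 1 mouse.

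JAK1 is a tyrosine kinase bound to the inner part of many cytokine receptors. When a cytokine binds, JAK1 phosphorylates STAT transcription factors, which enter the nucleus and bind paired half-sites of the form TTCNNNGAA in the DNA near their target genes. Hepatocytes use this pathway to respond to interleukin-6 and interferons. None of the 9 genes is known mainly as a product of the hepatocyte: they code for a membrane carbonic anhydrase (Car4), a bone hormone (Fgf23), an imprinted protein of the MAGE family (Magel2), a regulator of G protein signalling (Rgs4), a receptor of activated lymphocytes (Tnfrsf9), a pair of placental products (Plac1 and Ctsj), an enzyme of O-glycosylation (Galnt16) and an amine oxidase of vessel walls and fat (Aoc3).

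In the mm9 build (NCBIM37), the genes lay on 8 chromosomes and only Car4 and Aoc3 shared one. Car4 was annotated at chr11:84771288-84779546 on the plus strand, Fgf23 at chr6:127022920-127031426 on the plus strand, Magel2 at chr7:69521865-69526526 on the plus strand as a single exon, and Rgs4 at chr1:171671608-171677773 on the minus strand. Tnfrsf9 was annotated at chr4:150288671-150320211 on the plus strand, Plac1 at chrX:50423172-50593288 on the minus strand and Ctsj at chr13:61101639-61107277 on the minus strand. Galnt16, listed there under its older symbol Galntl1, was at chr12:81619458-81704883 on the plus strand, and Aoc3 at chr11:101191919-101203252 on the plus strand. All 9 are protein-coding genes.

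The promoters are shown for 3 of the genes, since they hold the matches to the STAT and NF-κB motifs discussed here. Each line is the 250 bases before a RefSeq transcript start, 5′ to 3′ on the strand of the gene, in the GRCm38.p6 build. Capitals mark the motif matches. The Fgf23 window is chr6:127072652-127072901, the Tnfrsf9 windows are chr4:150919905-150920154 for the first start and chr4:150927749-150927998 for the second, and the Car4 window is chr11:84957504-84957753, all on the plus strand.
Fgf23: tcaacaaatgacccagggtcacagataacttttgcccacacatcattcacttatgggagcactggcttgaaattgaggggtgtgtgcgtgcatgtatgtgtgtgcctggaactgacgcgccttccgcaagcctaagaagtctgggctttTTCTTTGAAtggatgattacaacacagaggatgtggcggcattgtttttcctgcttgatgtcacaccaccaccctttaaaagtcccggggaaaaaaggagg
Tnfrsf9 first start: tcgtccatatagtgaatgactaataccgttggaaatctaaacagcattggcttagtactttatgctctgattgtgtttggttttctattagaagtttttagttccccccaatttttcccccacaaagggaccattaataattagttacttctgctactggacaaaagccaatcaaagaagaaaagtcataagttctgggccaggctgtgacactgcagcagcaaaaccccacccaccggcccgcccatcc
Tnfrsf9 second start: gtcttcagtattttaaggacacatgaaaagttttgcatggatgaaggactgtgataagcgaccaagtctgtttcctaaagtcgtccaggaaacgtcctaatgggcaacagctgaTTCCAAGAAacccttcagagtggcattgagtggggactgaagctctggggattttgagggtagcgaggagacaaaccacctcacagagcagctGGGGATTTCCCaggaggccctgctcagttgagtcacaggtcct
Car4: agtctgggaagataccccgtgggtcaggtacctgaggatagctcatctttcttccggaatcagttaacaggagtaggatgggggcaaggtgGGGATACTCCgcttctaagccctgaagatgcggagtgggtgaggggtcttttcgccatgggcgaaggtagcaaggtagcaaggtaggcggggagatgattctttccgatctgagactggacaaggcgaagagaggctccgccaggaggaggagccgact

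The RefSeq table held promoters for 8 of the 9 genes, 12 in all. Aoc3 was the missing one. TTCNNNGAA, searched on both strands, was found in 2 of the 12 promoters: as TTCTTTGAA in Fgf23, with its first base at position -101 (the base just before the start being -1), and as TTCCAAGAA in the second promoter of Tnfrsf9, at position -136. The same letters occurred in 7.02% of the 32851 promoters of the table in windows of the same length. The wider spacing TTCNNNNGAA, bound by STAT6, was in 0 of the 12 and in 5.85% of all promoters. The κB motif of the NF-κB factors was found in Car4, as GGGATACTCC, and in the second Tnfrsf9 promoter, as overlapping matches on GGGGATTTCCC, and in 7.25% of all promoters. TATAAA was found in Magel2 and Rgs4 and in 12.4% of all promoters. These are matches of letters and do not show binding.

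All libraries were deep. Between 26549326 and 38388133 reads were counted on genes per library and library totals of KI and WT were of the same order in every tissue. In brain both KI totals, 33557982 and 35606374, exceeded the highest WT total of 33534256, so raw counts there also reflect depth. The markers of the labelled tissues were present: 6 hepatocyte markers summed to 121149 to 146576 CPM (counts scaled to a library total of 1000000) in the liver libraries, 6 neuron markers to 6499 to 7957 CPM in the brain libraries, and 6 keratinocyte markers to 900.0 to 16423 CPM in the skin libraries. The hepatocyte list, whose transthyretin gene Ttr is also active in the choroid plexus, varied in brain from 32.9 to 2414 CPM in WT, with WT 5 the highest, and was at 882 and 996 CPM in KI. Both KI brains had a lower neuron sum, 6499 to 6992 CPM, than the WT brains, at 7278 to 7957 CPM. Their sum of 6 endothelial markers was higher, at 234 to 237 CPM against 106 to 209 CPM in WT. In each of these 2 lists 0 of 6 genes were called. The part of these differences in the brain values was not tested. Y-linked expression was present in KI 2 and WT 3 and absent in the other 5 mice, so the KI mice differed from each other in it. By the study's methods the skin RNA was less intact than that of the liver. The number of genes called in brain depended on WT 5, as given in the closing section. Across all genes in liver, 833 of 14966 tested (5.57%) were called at an adjusted p under 0.1 by edgeR's quasi-likelihood test with Benjamini-Hochberg adjustment.

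In KI liver Fgf23 was the most abundant of the 9, and Car4, Tnfrsf9 and Magel2 stood with it at more than 100 times the WT level. Fgf23 codes for the hormone that osteocytes and osteoblasts release to make the kidney excrete phosphate and lower active vitamin D. Its counts were 6018 and 5176 in KI 1 and KI 2, against 3, 12, 26, 12 and 11 in WT 1 to WT 5. Both KI livers lay far above every WT liver. The level was 168 ± 26.5 CPM (SD, n = 2) in KI and 0.391 ± 0.285 CPM (SD, n = 5) in WT. Pooled over the libraries of each genotype, the KI level was 441 times that of WT, with an exact 95% interval of 345 to 573 that covers counting error only, as do all intervals of pooled folds here.

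Car4, a carbonic anhydrase anchored to the outer face of the cell membrane, where it interconverts carbon dioxide and bicarbonate, had 677 and 597 counts in the KI livers. The WT livers had 0, 0, 0, 1 and 5. Its WT counts came almost wholly from WT 5, and 3 of the 5 WT livers held none. The pooled fold was 536, with an interval of 245 to 1462. The width of this interval reflects that only 6 reads in total were counted over the 5 WT libraries.

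Tnfrsf9 codes for 4-1BB (CD137), a receptor of the TNF receptor family that costimulates activated T cells and NK cells. It had 1391 and 1825 counts in the KI livers, and 21, 25, 9, 8 and 7 in the WT livers. The pooled fold was 116 (91.5 to 149). Magel2, an imprinted gene of the Prader-Willi region that is expressed from the paternal copy, had 116 and 294 counts in KI and 0, 6, 0, 0 and 0 in WT. The KI livers differed from each other by 2.36 times in CPM, the widest gap among the 7 genes that were higher in KI. All 6 WT reads of Magel2 came from WT 2, and the pooled fold was 172 (78.5 to 472).

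The other 3 genes that were higher in KI liver had smaller pooled folds. Like Fgf23 and Tnfrsf9, they had at least 1 count in every WT liver. Rgs4, which speeds the return of G protein alpha subunits to their inactive state, had 731 and 538 counts in KI and 27, 12, 46, 12 and 10 in WT, a pooled fold of 29.9 (24.5 to 36.8). Plac1, an X-linked gene known for its expression in trophoblast, had 306 and 479 counts in KI against 2, 5, 12, 10 and 10 in WT, a pooled fold of 50.8 (36.8 to 72.0). Ctsj, a placental cysteine protease of the cathepsin family, had 150 and 135 counts in KI and 4, 2, 2, 15 and 1 in WT, a pooled fold of 30.0 (19.7 to 47.5). For each of the 3, the lowest KI library lay above the highest WT library.

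Galnt16 and Aoc3 had the opposite pattern at much lower counts. Galnt16, an enzyme that attaches the first sugar of mucin-type O-glycans, was at 0 in both KI livers and at 12, 104, 8, 85 and 44 in the WT livers. With a floor of 3 counts for each KI library, the mean of the WT livers was at least 15.5 times the KI level. The lowest WT livers, with 8 and 12 counts, lay much closer to that floor. Aoc3, the vascular adhesion protein VAP-1, an amine oxidase on the surface of smooth muscle, endothelium and adipocytes, had 1 and 3 counts in the KI livers. The WT livers had 38, 148, 13, 78 and 81, which is 35.5 times the KI level with an interval of 13.7 to 131. The WT livers spread widely in both genes: WT 1 and WT 3 were the lowest and WT 2 the highest.

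**Figure D1:**
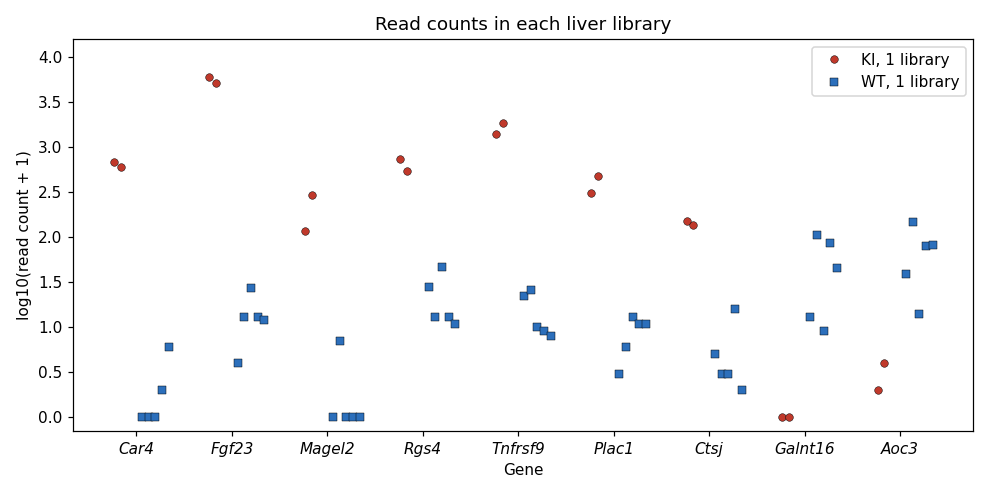
Read counts of the 9 genes in each liver library, drawn as log10(count + 1), with KI libraries as red circles and WT libraries as blue squares. The KI points lie above all WT points for the 7 genes from Car4 to Ctsj and below them for Galnt16 and Aoc3, and the KI points of Galnt16 are at 0.

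The separation of the groups in liver was set by the choice of genes and is no further evidence. Over all tested genes, the KI values were the highest of the 7 livers for 13.8% of genes and the lowest for 10.1%. A gap in which every KI liver was at least 10 times every WT liver, with the WT level held at no less than 3 counts, was found for 8 of the 19168 genes with a count in liver, and 6 of these 8 were Car4, Fgf23, Magel2, Rgs4, Tnfrsf9 and Plac1. Ctsj missed it through the 15 counts of WT 4. No gene had such a gap in skin or brain. In the reverse direction, with the KI level held at no less than 3 counts, 0 genes in liver had such a gap. Neither Galnt16 nor Aoc3 had one. Among the 831 genes called in liver whose groups did not overlap, ranked by the size of the fitted log2 fold change, the 9 held ranks between 2 (Car4) and 11 (Ctsj). The genes ranked 1 and 6, at log2 fold changes of 9.04 and 7.18, are not among the 9. The fitted value of Ctsj, the lowest-ranked of the 9, was 4.84 and that of the next gene, at rank 12, was -4.77.

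Between genes, levels are compared per length of exon, as RPKM, the CPM divided by the length of exon in kilobases. In KI liver Fgf23 was at 92.8 RPKM, followed by Tnfrsf9 at 17.6, Car4 at 9.74, Plac1 at 8.37, Rgs4 at 6.18, Ctsj at 3.35 and Magel2 at 1.30. These are means of 2 libraries. The KI libraries lay on different sides of each other from gene to gene: KI 1 was higher in CPM for Car4, Fgf23, Rgs4 and Ctsj, and KI 2 for Magel2, Tnfrsf9 and Plac1.

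Levels of the same gene in other tissues place the KI liver values. In WT mice all 9 genes were higher on average in skin than in liver, by 5.15 times for Fgf23 to 517 times for Car4, a comparison for which no test is given because the low or high liver level was part of the choice. The KI liver level of Car4, 19.1 CPM, was close to the 18.2 CPM of WT skin. Fgf23 in KI liver was 83.4 times its level in WT skin, 2.02 ± 1.16 CPM (SD, n = 5), the WT tissue where it was highest. Tnfrsf9 was 8.12 times and Plac1 3.77 times the WT skin level, and Ctsj 1.30 times. Rgs4 and Magel2 stayed below the WT brain: Rgs4 at 19.1 CPM in KI liver against 149 ± 43.2 in WT brain, and Magel2 at 6.05 against 50.8 ± 15.1 (SD, n = 5 in both).

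**Figure D2:**
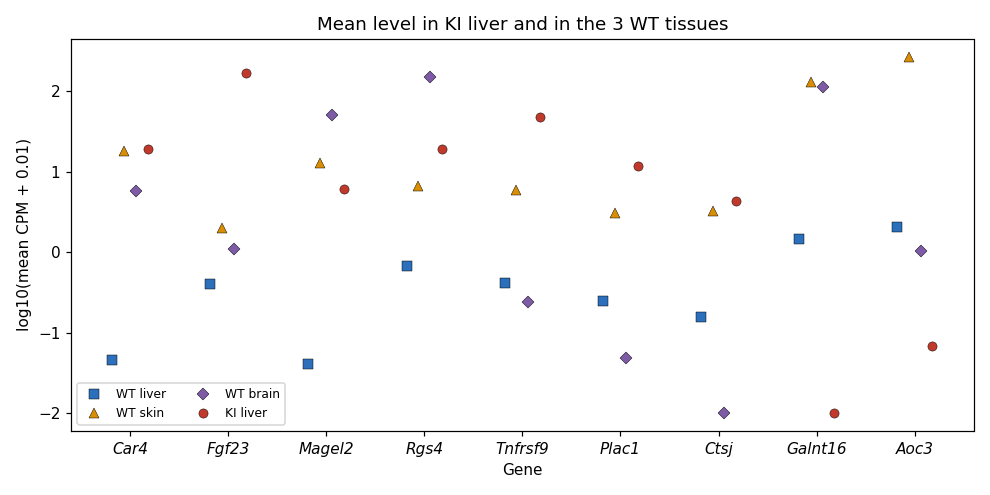
Mean level of each gene in KI liver (red circles, n = 2) and in WT liver, skin and brain (n = 5 each), drawn as log10(mean CPM + 0.01). The KI liver point of Fgf23, at 168 CPM, lies above all 3 WT tissues, while those of Magel2 and Rgs4 lie between WT liver and WT brain.

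Whether the WT skin and WT brain levels differed was tested in a model with mouse as a block, in which 78.8% of the 17504 genes tested were called. Ctsj, Aoc3, Plac1, Tnfrsf9 and Car4 were higher in skin. The log2 differences were 9.76 for Ctsj, which had 0 counts in all 7 brain libraries so that its fitted value depends on the model, 8.44 for Aoc3, 6.31 for Plac1, 4.60 for Tnfrsf9 and 1.59 for Car4, the last with an adjusted p of 0.00201 by edgeR. Rgs4 and Magel2 were higher in brain, by log2 differences of -4.47 and -2.01 (skin minus brain). Fgf23 and Galnt16 did not pass, at 0.96 and 0.26 with adjusted p of 0.148 and 0.114, but both passed without WT 4, at 1.54 and 0.36 with adjusted p of 0.00552 and 0.0534 by edgeR.

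In KI skin, Tnfrsf9 and Fgf23 were the 2 genes whose values lay above those of every WT mouse, but neither passed the test adjusted over all genes. Tnfrsf9 had 1114 and 866 counts in the KI skins and 269, 188, 318, 71 and 84 in the WT skins. Its level was 32.2 ± 3.40 CPM (SD, n = 2) in KI and 5.91 ± 3.29 CPM (SD, n = 5) in WT, with the highest WT library at 9.11 and the lowest KI library at 29.8. The log2 fold change was 2.48 (SE 0.519), with an adjusted p of 0.584 by edgeR and an unadjusted p of 0.00148 from the same fit. It was called by 2 other fits: DESeq2's Wald test gave an adjusted p of 0.00140, and an edgeR fit that shared the spread of all 21 libraries gave 0.0375.

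Fgf23 had 281 and 216 counts in the KI skins. The WT skins had 82, 45, 57, 20 and 103, all lower. The level was 8.09 ± 0.918 CPM (SD, n = 2) in KI and 2.02 ± 1.16 CPM (SD, n = 5) in WT. The log2 fold change was 2.03 (SE 0.552), with an adjusted p of 0.758 by edgeR and an unadjusted p of 0.00643 from the same fit. DESeq2 gave an adjusted p of 0.0789, and the fit of all 21 libraries gave 0.191. For comparison, both KI skins lay above all WT skins for 3.98% of the 16163 genes tested in skin, and for 2 of these 9.

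None of the 9 genes was called in skin by edgeR fitted to the skin libraries alone, where 4 of the 16163 genes tested (0.0247%) were called, 738 had an unadjusted p under 0.05 and DESeq2 called 109. Ctsj had 327 and 140 counts in KI and 142, 56, 29, 239 and 59 in WT. The groups overlapped, since WT 4 lay above KI 2, and the log2 fold change was 1.21 (SE 0.712), with an adjusted p of 0.999 by edgeR. The remaining 6 genes also overlapped. Car4 had 574 and 851 counts in KI and 547, 435, 1244, 261 and 413 in WT, a log2 fold change of 0.39 (SE 0.522). Magel2 had 480 and 410 counts in KI and 230 to 616 in WT. Plac1 had 82 and 114 counts in KI and 77, 102, 93, 102 and 108 in WT, and its log2 fold change was 0.10 (SE 0.295). Rgs4 had 197 and 226 counts in KI and 229, 271, 259, 103 and 154 in WT. Log2 fold changes were 0.29 (SE 0.348) for Aoc3, 0.20 (SE 0.448) for Magel2 and 0.13 (SE 0.388) for Rgs4.

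The 2 genes that were lower in KI liver were abundant in skin, where KI and WT overlapped. Galnt16 had 3348 and 4263 counts in the KI skins and 3073, 4781, 4606, 3441 and 4346 in the WT skins. Its log2 fold change was -0.02 (SE 0.226). Aoc3 had 8844 and 10789 counts in KI and 9053, 6168, 13754, 5164 and 8294 in WT. In both genes the KI values lay inside the WT range.

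The skin libraries differed widely in the level of keratinocyte markers. The 6 keratinocyte markers summed to 13583 CPM in KI 1 and 900.0 CPM in KI 2, and to between 1500 and 16423 CPM in the WT skins, so the KI skins lay near the opposite ends. Tnfrsf9 and Fgf23 were high in both KI skins. Among mice with Y-linked expression, Tnfrsf9 was at 29.8 CPM in KI 2 and 9.11 CPM in WT 3, and Fgf23 at 7.44 and 1.63 CPM. Among those without it, Tnfrsf9 was at 34.7 CPM in KI 1 and at 2.05 to 8.89 CPM in WT, and Fgf23 at 8.74 CPM and 0.578 to 3.60 CPM. With Y-linked expression as a covariate in the skin fit, the log2 fold changes were 2.41 for Tnfrsf9 and 2.11 for Fgf23, and neither was called. The 8 markers of T and NK cells, the cells in which Tnfrsf9 is best known, summed to 12.3 to 15.4 CPM in KI and 5.99 to 13.6 CPM in WT skin, with 0 of the 6 tested called and none at 0 in all libraries. The 6 markers of osteocytes and osteoblasts, the cells in which Fgf23 is best known, summed to 10.6 to 15.3 CPM in KI and 9.95 to 15.7 CPM in WT skin, with none at 0 in all libraries. The part of these cells and of keratinocytes in the skin values was not tested.

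**Figure D3:**
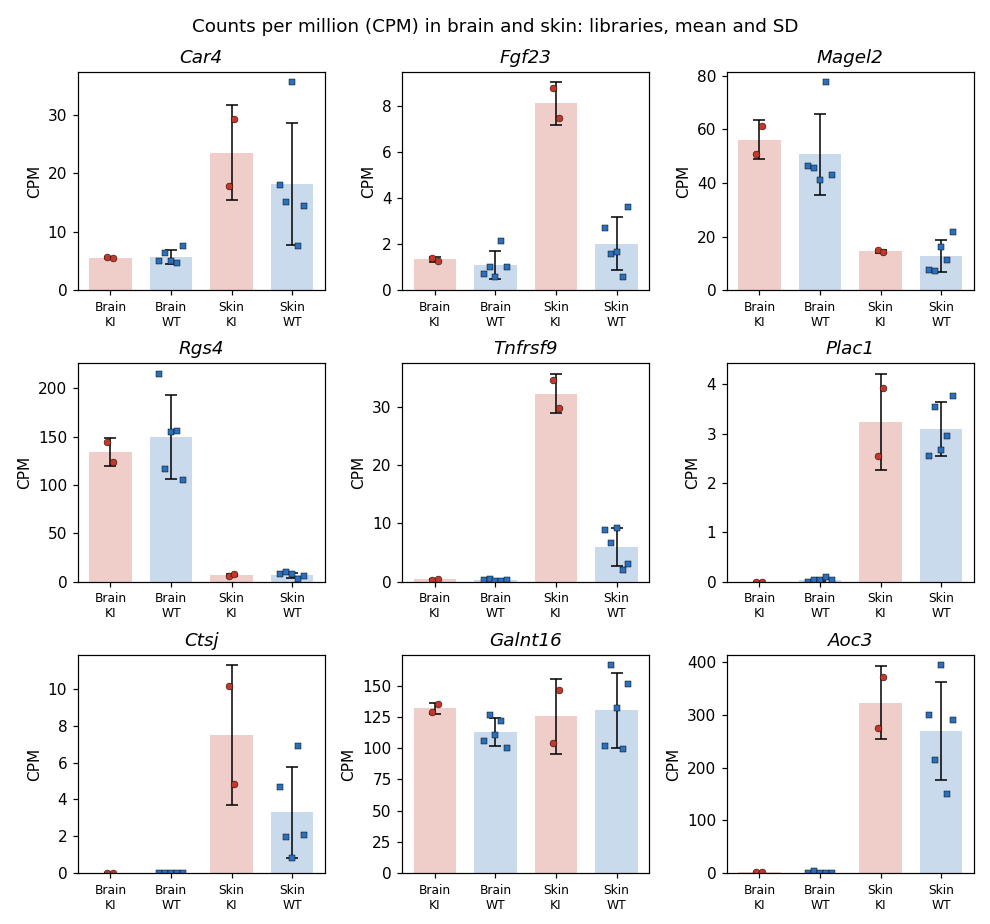
Level of each gene in brain and skin in CPM, with each library as a point (KI red circles, WT blue squares), bars for the mean and error bars for the SD (n = 2 KI, n = 5 WT). The KI points stand clear of the WT points in skin for Fgf23 and Tnfrsf9, and by less in brain for Galnt16.

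In the brain none of the 9 genes was shown to change. Plac1 and Ctsj fell below the filter on low counts: Ctsj had 0 counts in all 7 brains, and Plac1 had 0 in both KI brains and 0, 1, 1, 3 and 1 in the WT brains. Of the 16322 genes tested in brain by edgeR, 0 were called (0%), while 1732 had an unadjusted p under 0.05 and DESeq2 called 514. None of the 7 tested genes was among those DESeq2 called, and for Tnfrsf9 it gave no adjusted p.

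Rgs4 and Magel2, the genes with the most brain expression relative to the other tissues, had overlapping values in KI and WT brain. Rgs4 had 5148 and 4163 counts in KI and 7002, 3598, 4884, 5227 and 2789 in WT, with a log2 fold change of -0.18 (SE 0.249). Magel2 had 1816 and 2061 counts in KI and 1505, 1417, 1298, 2604 and 1146 in WT, with a log2 fold change of 0.11 (SE 0.253).

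Galnt16 was the only one of the 9 with both KI brains above all WT brains, at 4579 and 4531 counts against 3438, 3914, 3485, 4072 and 2654. In CPM this was 132 ± 4.54 (SD, n = 2) in KI against 113 ± 11.0 (SD, n = 5) in WT. The log2 fold change was 0.19 (SE 0.122), with an adjusted p of 0.634 by edgeR. Both KI brains lay above all WT brains for 13% of the genes tested, so 1 of 7 was near the background.

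Tnfrsf9 and Fgf23 were scarce in brain. Tnfrsf9 had 12 and 14 counts in KI and 11, 11, 3, 5 and 6 in WT, and its log2 fold change was 0.65 (SE 0.583) with an adjusted p of 0.729 by edgeR. Fgf23 had 50 and 42 counts in KI and 23, 31, 18, 71 and 27 in WT. The groups overlapped in CPM for both genes. The log2 fold change of Fgf23 was 0.26 (SE 0.514). Car4 had 200 and 186 counts in KI and 160, 198, 159, 154 and 199 in WT, a log2 fold change of -0.07 (SE 0.273), and Aoc3 had 40 and 49 against 24, 98, 23, 10 and 6, a log2 fold change of 0.29 (SE 0.908).

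**Figure D4:**
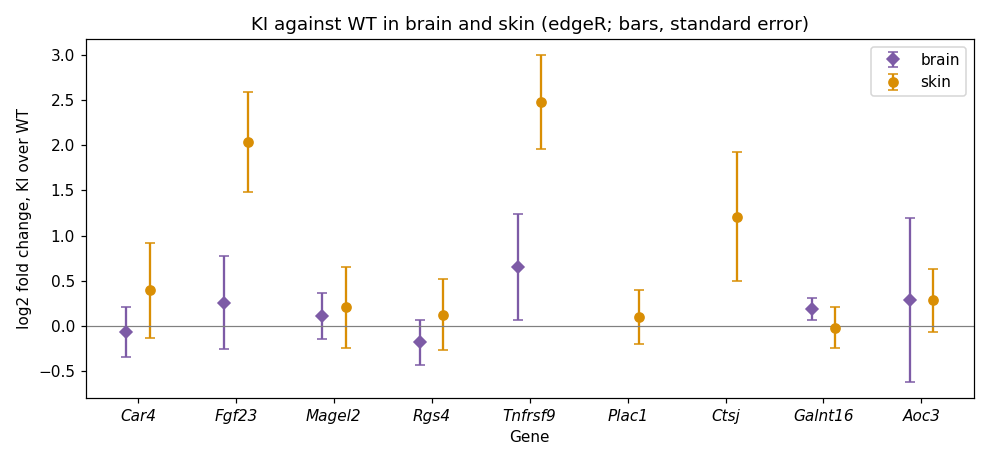
Log2 fold change of KI over WT in brain (diamonds) and skin (circles) from edgeR, with bars for the standard error (n = 2 KI and 5 WT libraries per tissue). Tnfrsf9 at 2.48 and Fgf23 at 2.03 in skin are the 2 highest points, and Plac1 and Ctsj have no brain value because they fell below the filter on low counts.

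Whether the KI effect differed between skin and brain was tested directly, with mouse as a block. Over all 17504 genes tested, 0 were called (0%) by edgeR at the adjusted threshold, and 452 had an unadjusted p under 0.05 with a higher effect in skin and 486 with a lower one. No other tool was run on this term. For Tnfrsf9 the effect in skin exceeded that in brain by a log2 value of 1.87 (SE 0.705), with an adjusted p of 0.868 and an unadjusted p of 0.0278 by edgeR. For Fgf23 the difference was 1.71 (SE 0.974). The other 5 genes with a brain value had differences between -0.41 (Aoc3) and 0.52 (Car4). A difference of the KI effect between skin and brain was therefore not shown for any of the 7.

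Several cell types could hold the 9 genes, and their markers were read in liver beside them. In bulk tissue, fewer cells of a type and less RNA per cell cannot be told apart. Of 11 trophoblast markers, set beside Plac1 and Ctsj, 7 had 0 counts in all liver libraries, among them the trophoblast gene Tpbpa, and the list summed to 0.116 to 0.155 CPM in KI and 0.0579 to 0.271 CPM in WT. The osteocyte and osteoblast list, set beside Fgf23, summed to 0 to 0.435 CPM in KI and 0.145 to 0.775 CPM in WT, with the bone gene Ibsp at 0 in all. Both lists were near 0 in KI and WT livers alike, with 0 genes of the first and 1 gene of the second tested. In the KI livers Plac1 was at 9.51 CPM or more and Fgf23 at 149.5 CPM or more.

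The T and NK cell list, set beside Tnfrsf9, summed to 11.6 to 13.1 CPM in KI liver and 6.14 to 10.6 CPM in WT liver. Those groups did not overlap, although 0 of its 6 tested genes were called, and none of its 8 markers was at 0 in all livers. A separation in this direction was also seen for 13.8% of the single genes tested in liver. Tnfrsf9 alone was at 43.2 CPM or more in KI liver. The neuron list, set beside Rgs4 and Magel2, summed to 10.6 to 13.4 CPM in KI and 10.3 to 13.0 CPM in WT. Within it Tubb3, a neuronal tubulin, rose by a log2 value of 3.47 and Stmn2, a neuronal microtubule regulator, fell by 4.14 on the log2 scale, with adjusted p of 0.0153 and 0.0944 by edgeR. Tubb3 had 122 and 102 counts in KI and 2 to 23 in WT. Stmn2 rested on few counts, 1 and 1 in KI and 6 to 44 in WT, with an SE of 1.12.

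For Aoc3, the 6 smooth muscle markers summed to 158 to 227 CPM in KI liver and 142 to 314 CPM in WT liver, so the groups overlapped. The endothelial list overlapped as well, at 375 to 448 against 164 to 389 CPM. Among the WT livers the smooth muscle sum was lowest in WT 3 and WT 1 and highest in WT 2. These libraries were also the extremes for Aoc3 and Galnt16, a likeness that was not tested. The adipocyte list summed to 203 CPM in both KI livers and 65.0 to 90.8 CPM in WT, but this sum was nearly all Fabp4, a fatty acid binding protein also made by macrophages and endothelium, with 6537 of 6541 counts in KI 1. Fabp4 rose by a log2 value of 1.35, and of the 6 markers only 2 passed the filter. The neutrophil list summed to 5728 to 6869 CPM in KI and 3567 to 4642 CPM in WT liver, with 2 of 6 genes called, S100a8 and S100a9, both higher. The cholangiocyte list summed to 43.6 to 44.8 CPM in KI and 93.2 to 197 CPM in WT. Of its 6 genes 1 was called lower, Spp1, which alone held 28.7 CPM in KI and 119 CPM in WT on average. The erythroid list summed to 2820 to 2873 CPM in KI and 3132 to 4682 CPM in WT, with 1 of 6 genes called lower, Slc4a1. The lung list, set beside Car4, holds mostly genes of lung epithelium, while Car4 marks lung capillaries. This list summed to 14.2 to 15.6 CPM in KI and 6.07 to 13.3 CPM in WT liver. Of its 6 genes only 2 were tested and 0 called, and Nkx2-1 was at 0 in all. The pancreas and gut list overlapped between KI and WT, at 28.0 to 35.0 against 30.1 to 35.3 CPM, and within it Cpa1, a pancreatic carboxypeptidase, was higher in KI at a log2 fold change of 2.72 and Cela1 was lower at -0.71. Beside these lists, 5.57% of all genes tested in liver were called. Single genes had KI values wholly higher than the WT range in 13.8% of cases and wholly lower in 10.1%. Whether any marker list exceeded these shares was not tested. The part of these cell types in the liver values of the 9 genes was not tested.

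The genes next to the 9 on the chromosome were mostly not called in liver. Of the 18 nearest protein-coding neighbours, 1 on each side, 13 passed the filter in liver and 1 was called, beside 5.57% of all genes: Usp32, a deubiquitinase beside Car4, at a log2 fold change of -0.50, opposite in direction to Car4. Ndn and Mkrn3, which are imprinted with Magel2 in the Prader-Willi region, were at -0.04 and 0.24. Ndn had 235 and 253 counts in the KI livers and 119 to 370 in WT. Park7, which starts or ends 125 bases from Tnfrsf9, was at -0.06, and Aoc2, 903 bases from Aoc3 and of the same enzyme family, was at -0.46 with an adjusted p of 0.318 by edgeR. Beside Ctsj, Tpbpa and the cathepsin Ctsq had 0 counts in all livers. Ctsj belongs to a cluster of similar cathepsin genes whose reads could be split in counting, so its values are less certain than those of the others.

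**Figure D5:**
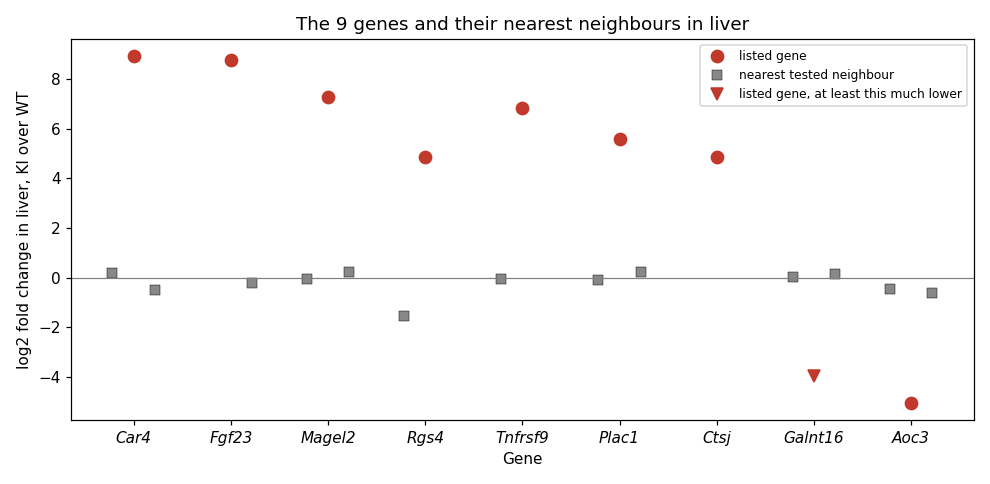
Log2 fold change of KI over WT in liver for the 9 genes (red) and for the nearest neighbour on each side that passed the filter (grey squares), with the downward triangle marking the bound for Galnt16, which was at 0 in both KI livers. The neighbours lie between -1.56 (Rgs5, not called) and 0.24 while the 9 genes lie far from 0.

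Most relatives and pathway partners of the 9 genes were not called in liver. Over 8 lists with 144 genes besides the 9, 108 were tested in liver, of which 9 rose and 4 fell. In skin 122 and in brain 111 were tested, and edgeR called 0 in both, while 8 in skin and 5 in brain had an unadjusted p under 0.05 and DESeq2 called 1 in skin and 2 in brain. In liver this is 13 of 108, a larger share than the 5.57% over all genes, a difference that was not tested.

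Among the enzymes and their relatives, 2 carbonic anhydrases rose and 1 fell of 13 tested in liver: Car7, a cytosolic form, at a log2 fold change of 3.38 with 218 and 271 counts in KI against 14 to 30 in WT, and Car13 at 0.94, while Car8, a relative without the enzyme activity, was at -0.51. The median of the 13 was -0.31, beside -0.02 over all genes tested in liver. Of 15 cathepsins tested, 3 rose and 0 fell: Ctsc, which activates proteases of granulocytes, at 0.99, Ctss, a protease of antigen-presenting cells, at 0.85, and Ctsg, a neutrophil granule protease, at 0.49, beside the higher S100a8 and S100a9. The median of the 15 was 0.23. Of 11 GALNT enzymes tested, Galnt18 rose at 1.21 and 0 fell, opposite in direction to Galnt16, with a median of 0.12. Of 9 amine oxidases tested, Loxl4, a lysyl oxidase that crosslinks collagen, rose at 2.80 and 0 fell, with a median of -0.09.

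Among receptors and signalling partners, 1 of 15 genes tested of the FGF23 and phosphate axis was called in liver. This was Fgfr3, an FGF receptor, which fell by 1.04 on the log2 scale. Kl, the co-receptor klotho, had 11 and 23 counts in the KI livers and 7 to 37 in the WT livers, so the groups overlapped. The median of the axis was -0.11. Of 24 genes tested around 4-1BB and the TNF receptor family, Tnfrsf1a, the main TNF receptor, rose at 0.45 and Tnfrsf14 fell by 0.77 on the log2 scale, with a median of 0.21. Tnfsf9, the ligand of 4-1BB, had 21 and 30 counts in KI liver and 14 to 36 in WT liver. Of 14 RGS genes tested, Rgs19 was at 0.52 and Rgs12 at -0.38, both called, with a median of 0.20. Of 8 genes tested of the Prader-Willi cluster and the partners of MAGE proteins, 0 were called by edgeR, 1 had an unadjusted p under 0.05 and DESeq2 called 1. Its median was 0.01.

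Over all 21 libraries, the genes with the pattern most like 8 of the 9, all but Magel2, were found by Pearson's r of log2 CPM among 17988 genes, leaving out the 9 themselves. These values describe likeness over libraries that share a tissue or a mouse, and no test is given. Among the 21 are the liver libraries whose values chose the 9 genes, so likeness among the 9 was partly set by the choice. The closest gene outside the 9 was Fam43a for both Tnfrsf9 (r = 0.909) and Plac1 (r = 0.915), Grrp1 for Car4 (0.914), Sprr2b for Fgf23 (0.861), Syt12 for Rgs4 (0.953), Serpina3h for Ctsj (0.939), Kcne1l for Galnt16 (0.986) and Aspn for Aoc3 (0.984). Of these 8, only Tnfrsf9 had the same closest gene by Spearman's rank correlation. Among the 9 themselves, Plac1 and Ctsj were each other's closest, at r = 0.923. Fgf23 was closest to Tnfrsf9, at r = 0.792. By Spearman's correlation the closest of the 9 was Tnfrsf9 for Ctsj (0.919) and Car4 for Fgf23 (0.766), so these orders depend on the measure.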

How the data were processed

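The authors aligned trimmed paired-end reads to mm9 with TopHat2 and deposited raw read counts per gene symbol, made with HTSeq according to the submitters' processing notes; versions and the strand setting are not given in the sources used here. The counts are not normalized. The 5 summary lines per library stayed out of all totals, and 80.5% to 87.6% of uniquely aligned reads were counted on genes. The study's RPKM and GFOLD values were not used here.

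KI and WT were compared within each tissue with edgeR 4.0.16 in R 4.3.3 (filterByExpr, TMM, quasi-likelihood test, Benjamini-Hochberg adjustment over all genes tested, called at an adjusted p under 0.1). Skin against brain was fitted over 14 libraries with mouse as a block. CPM are counts scaled to library totals on genes. RPKM used exon lengths of GENCODE vM1. SE is the log2 fold change over the root of F. Nothing in the labels says whether mice came from separate litters.

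The 9 genes, the pathway and marker lists and the tests were chosen with earlier results of these data known. All 9 genes are named, and of the lists the genes called, the ligands and receptors described, and the neighbours. Each main edgeR fit was run on simulated data with known changes, and the alternative fits were not. The simulated counts followed the trend of the spread over genes, not the spread of each gene, and their recovery is not given here. Alternatives were DESeq2 1.42.0 size factors, no filter, DESeq2's Wald test, all 21 libraries in 1 fit, a block for the replicate number, a covariate for Y-linked expression, a threshold of 0.05, each mouse left out, and Spearman's correlation. Replicate numbers are shared by KI and WT mice but mark no stated pairing. The gene most like Magel2 in pattern is not reported here.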

Additional observations from a re-analysis of the deposited data

Results flagged for a closer look

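In groups of 5 WT libraries, 6 of 26 sets of values held 1 library whose gap to the nearest other exceeded Dixon's 95% critical value, a test that flags some groups by chance alone. In liver these were Car4 in WT 5 (0.145 CPM, 5 counts, with the others at 0 to 0.0310 CPM), Magel2 in WT 2 (0.156 CPM, 6 counts, with the others at 0) and Ctsj in WT 4 (0.465 CPM, 15 counts, with the others at 0.0289 to 0.120 CPM). In brain they were Fgf23 in WT 4 (2.12 CPM, with the others at 0.572 to 1.02), Magel2 also in WT 4 (77.7 CPM, with the others at 41.2 to 46.2) and Aoc3 in WT 2 (3.17 CPM, with the others at 0.226 to 0.737). The brain library of WT 4 was thus flagged for both Fgf23 and Magel2, and each of the other flags fell in a library of its own.

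The KI values of Galnt16 lay on opposite sides of the WT values in 2 tissues. The KI livers were at 0 counts, under every WT liver, and both KI brains lay above all WT brains, at a log2 fold change of 0.19 that did not pass the test, while the skins overlapped. The difference between liver and brain was not tested, since the liver values chose the gene.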

How the results depend on the processing

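The count of genes called in brain was 0, and became 614 with all 21 libraries in 1 fit, 514 with DESeq2, 2165 with the replicate block and 0 to 1698 when single mice were left out, the highest without WT 5. None of the 7 tested genes was called in brain under any of these, where DESeq2 gave no adjusted p for Tnfrsf9. In liver 833 became 242 with all 21 libraries, 1462 with DESeq2, 407 with the Y-linked covariate, 383 at a threshold of 0.05 and 56 to 1290 when single mice were left out (56 without KI 2, 232 without KI 1, 1290 without WT 4). In skin 4 became 23 with all 21 libraries, 109 with DESeq2, 0 with the replicate block, 1 with the Y-linked covariate, 0 at a threshold of 0.05 and 0 to 1 without single mice. The cause of these shifts was not tested.

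With the replicate block, Tnfrsf9 in skin was at 2.16 and Fgf23 at 2.05, neither called, and the block reversed Aoc3 in brain (-0.32), Galnt16 in skin (0.0181) and Rgs4 in skin (-0.20). Same-numbered KI and WT libraries had deviations that correlated at -0.0952 to 0.198, with only 2 pairs per tissue, so the numbers were not taken to pair the mice. With all 21 libraries Car4 in brain turned to 0.0180 and Galnt16 in skin to 0.00388, and with no filter Galnt16 in skin was 0.00421. Leaving out single mice gave ranges that crossed 0 in brain for Car4 (-0.13 to 0.0948) and Magel2 (-0.0112 to 0.32). In skin this held for Car4 (-0.0173 to 0.83), Galnt16 (-0.30 to 0.26), Plac1 (-0.26 to 0.42) and Rgs4 (-0.0681 to 0.34), and for the skin minus brain effect of Magel2 (-0.0347 to 0.40) and Rgs4 (-0.0477 to 0.58). None of these was called. Tnfrsf9 in skin ranged from 2.16 to 2.72 and Fgf23 from 1.80 to 2.36 over all alternatives, with adjusted p of 0.00140 to 0.999 and 0.0789 to 1.00.

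In liver the fitted log2 fold changes of the 9 genes kept their direction under every alternative run. Those of Car4 ranged from 8.57 to 12.3 and those of Magel2 from 6.31 to 10.6, with the highest Magel2 value without WT 2.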
